A study of Homo sapiens with 17 samples.

Results

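Integrins, cadherins, laminins and collagens are the receptors and structural proteins through which cells hold on to each other and to the matrix around them. Their transcripts were taken from the 1 h TimeLapse sequencing (TL-seq) table by symbol alone: all names of the form ITGA, ITGB, CDH, PCDH, LAMA, LAMB, LAMC or COL followed by a chain number or letter. This gave 170 of the 19222 genes in the table. By name, 160 of them encode chains of these families, and the others are 5 cadherin-related (CDHR) genes, 4 further ITGB symbols (ITGB1BP1, ITGB1BP2, ITGB3BP and ITGBL1) and the laminin pseudogene LAMB2P1. The 170 symbols comprise 17 integrin alpha, 7 integrin beta, 19 cadherin, 48 clustered and 13 non-clustered protocadherin, 12 laminin and 44 collagen genes beside these.

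HEK-293T, a human embryonic kidney line, was incubated for 1 h with 500 µM 4-thiouridine (s4U), alone or with 1.8 µM emetine, an inhibitor of ribosome translocation, in 3 libraries each. One library per treatment received no s4U (1 untreated, 1 with 1.8 µM emetine, 1 h). In a second experiment, cells received 250 µM s4U for 2 h with 0, 1.8 or 240 µM emetine, in 3 libraries each. TL-seq recodes s4U so that RNA made during labeling carries T-to-C conversions, and the comparison asks whether blocking elongation changed the amount, the new share or the turnover of these transcripts.

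Integrins are heterodimers of 1 alpha and 1 beta chain that bind matrix ligands such as fibronectin and laminin. Laminins are trimers of an alpha, a beta and a gamma chain and, together with type IV collagen, form the sheet of the basement membrane. Classical cadherins join neighbouring cells in a calcium-dependent way, and protocadherins, best known from neurons, are their relatives. These chains are long, secreted or membrane-bound proteins made on ribosomes at the endoplasmic reticulum.

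The s4U libraries held 22246279 to 36429562 gene reads in untreated and 24241615 to 40018063 in emetine-treated cells. Levels are given in CPM, counts scaled to the gene reads of each library times its normalization factor (TMM, from edgeR). They therefore differ from counts scaled to gene reads alone. All 7 markers of HEK-293T were detected, with a summed level of 937 to 1062 CPM in untreated and 772 to 928 CPM in emetine-treated cells. The sum was uneven: in untreated cells VIM had a mean of 618 CPM and NEFM 177 CPM. PAX2, LHX1 and KRT8 were low, at 1.80, 2.97 and 5.99 CPM. Summed markers of other cells were low in the untreated libraries: 0.0472 to 0.286 CPM for endothelium, 0.283 to 0.645 CPM for hepatocytes and 2.06 to 2.78 CPM for fibroblasts. No source states that the replicates came from separate cultures, so the p-values measure the spread between these libraries.

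Among the emetine libraries, replicate 3 deviated most from its group, and each call that it decides is given with and without it. Over the 75 members tested for level, the SD of its log2 difference from the other replicates of its group was 0.433, against 0.198 to 0.259 in the other 5 libraries. That difference rose with exon length, with a Spearman rho of 0.43 across these 75 genes and 0.58 across 10680 genes of the table. The members tested were long, with a median summed exon length of 8392 bases against 5352.5 bases for all genes tested. Genes are not independent replicates. Level and fraction new were also fitted with a length and GC trend removed. The median log2 change in level was then -0.19 for members and -0.15 for all genes, and 2 members were lowered. Whether length caused any difference was not tested.

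**Figure D1:**
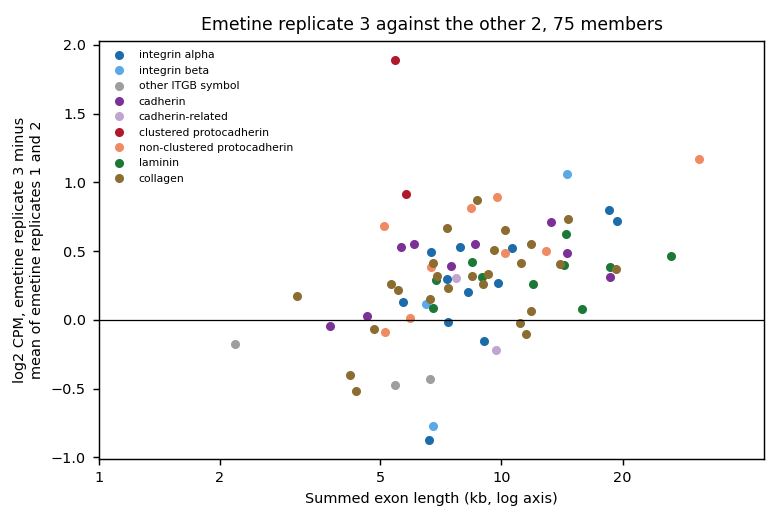
Each point is 1 of the 75 members tested for level, with its summed exon length in kb (log axis) against the log2 difference in CPM between emetine replicate 3 and the mean of emetine replicates 1 and 2, coloured by family. Most members lie above 0, among them nearly all of those over 10 kb, while ITGAE, ITGB4 and the further ITGB symbols lie below.

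Adhesion transcripts were a small and uneven part of the transcriptome. Members took 0.155% of gene reads in untreated cells, 3 had no read in the 6 s4U libraries (CDH9, PCDHB10 and PCDHGA3), 92 had 1 to 100 reads in total, and 75 passed the minimum of more than 100. Of these 75, which had 117 to 34957 reads, 45 also had at least 100 reads in every library and entered the test of the new share. Clustered protocadherins had few reads assigned to them: 46 of 48 fell below the minimum, and PCDHGC3 (1896 reads) and PCDHGA11 (446 reads) were the exceptions. Exons of these 2 overlap those of 21 other coding genes on the same strand, so their reads are uncertain. Where genes of a cluster share exons, reads there may not be assigned to 1 symbol. Low counts of the other 46 therefore need not mean that these genes were silent.

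LAMC1, the gamma chain of most laminins (chr1:183023420-183145592, plus strand, hg38), was the most abundant member at 186, 197 and 183 CPM in untreated cells and 177, 167 and 230 CPM after emetine. The ranges overlapped, with the highest value in emetine replicate 3. Its common beta partner LAMB1 (chr7:107923799-108003213, minus strand) had a mean of 68.8 CPM ± 3.77 (SD, n = 3) in untreated cells, and the alpha chain LAMA5 at 40.4 CPM ± 6.0 (SD, n = 3). Corrected for exon length, LAMC1 transcript level was 6.04 ± 0.355 times that of LAMB1 and 4.06 ± 0.219 times that of LAMB2 (SD, n = 3), while LAMA5 stood at 0.127 ± 0.0159 of LAMC1. The lengths cover the exons of all isoforms, 18592 bases for LAMB1 and 6865 for LAMB2. In CPM, without length, LAMC1 was 2.75 times LAMB1 and 5.00 times LAMB2, and LAMA5 stood at 0.214 of LAMC1. The gamma chain exceeded each of these partners in both measures, but the size and order of the ratios depend on the length used. The SD between replicates does not cover an error in length.

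Collagens were led by COL6A1 at 113 CPM ± 5.11, COL4A2 at 69.0 CPM ± 4.83 and COL18A1 at 65.5 CPM ± 2.93 (SD, n = 3). Per kb, the type VI chain COL6A1 was 3.95 ± 0.363 times its partner COL6A2, whereas the third common chain, COL6A3, had 10 reads in all 6 libraries. COL1A1, a chain of fibrillar type I collagen, reached 24.0 CPM, but its partner COL1A2 had 1 read in total. COL1A2 and COL6A3 were thus at or near the detection limit in these cells.

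The basement membrane chains COL4A1 (chr13:110148963-110307157, minus strand) and COL4A2 (chr13:110305812-110513209, plus strand) lie head to head, and their spans in GENCODE 44, the source of all gene coordinates here, overlap. The annotated starts in RefSeq (GRCh38) are 126 bases apart, and the stretch between them serves as upstream sequence for both genes. It is shown because the pair shares it while the levels differ (plus strand, chr13:110307158-110307283), with a CCAAT box and a GC box (GGGCGG) in capitals.

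COL4A1-COL4A2: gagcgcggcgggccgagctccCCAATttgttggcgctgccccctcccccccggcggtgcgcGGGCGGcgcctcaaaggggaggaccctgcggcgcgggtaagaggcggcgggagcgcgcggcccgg

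Searched on both strands, the stretch held 1 CCAAT and 1 GGGCGG and no TGACG or TATAAA. Of 35116 promoters in the RefSeq table, 21.1%, 34.6%, 13.8% and 5.87% held these letters in the 126 bases before the start, in the same order. Per kb of exon, COL4A2 was 2.31, 2.46 and 2.37 times COL4A1 in the untreated libraries and 2.58, 2.63 and 2.01 times after emetine. The ratio was alike in all untreated libraries, and emetine replicate 3 alone lay below them. The second type IV pair, COL4A5 and COL4A6, had a ratio of 1.51 ± 0.0482 (SD, n = 3) in untreated cells.

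Among integrins, the beta chain ITGB1 was the most abundant at 53.2, 57.4 and 39.4 CPM, followed by ITGB5 at 33.1 CPM ± 2.76 (SD, n = 3), and ITGB4 was low at 2.2 CPM. ITGAE (31.2 CPM), ITGA5, the fibronectin receptor chain (27.8 CPM), and ITGAV, the chain of vitronectin receptors (23.8 CPM), led the alpha chains. Per kb of exon, ITGB5 was 4.13 ± 0.497 and ITGB1 2.77 ± 0.384 times ITGAV, and ITGB1 was 0.907 ± 0.123 of ITGA5 (SD, n = 3). The lengths cover the exons of all isoforms, 14561 bases for ITGB1 and 7383 for ITGA5. In CPM, without length, ITGB5 was 1.39 and ITGB1 2.09 times ITGAV, and ITGB1 was 1.79 times ITGA5. The order of these chains thus depends on the length used. N-cadherin, CDH2, was the main classical cadherin at 79.2 CPM ± 3.35, and E-cadherin, CDH1, reached 2.14 CPM. The delta protocadherins PCDH7 (72.6 CPM ± 2.76), PCDH9 (37.8 CPM ± 5.57) and PCDH10 (29.4 CPM ± 2.35) were the main protocadherins (SD, n = 3). ITGB1BP1 (87.0 CPM), which binds the tail of integrin beta 1, and ITGB3BP (54.1 CPM) were high as well, and neither encodes an integrin chain.

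**Figure D2:**
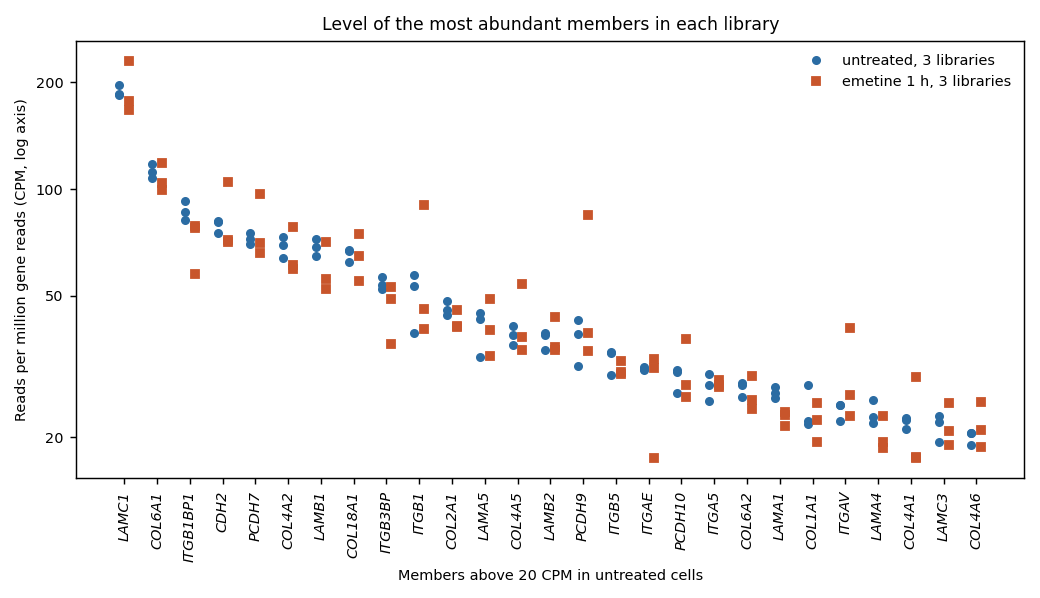
CPM (log axis) in each of the 6 s4U libraries for the 27 members above 20 CPM in untreated cells, with untreated libraries as circles and emetine libraries as squares. LAMC1 lies above all others, and the emetine square that stands apart for ITGB1, PCDH9, ITGAV and ITGAE is replicate 3.

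After 1 h of emetine, the level of no member changed past the threshold. Of 75 members tested, 0 were raised and 0 lowered in edgeR's quasi-likelihood test (adjusted p under 0.05), where 2.65% and 0.0436% of all 13776 genes tested were raised and lowered. Past a log2 change of 1 with an adjusted p under 0.01, the count was again 0, where 0.189% of all genes were raised and 0.00726% lowered. DESeq2 called 0 of the 65 members to which it gave an adjusted p, where 6.59% of all such genes were raised and 1.25% lowered; it gave none to the other 10, PCDH8 among them. At an unadjusted p under 0.05, 2 were higher (PCDH8 and PCDH18) and 1 lower (LAMA1), with 14.9% and 6.95% in the table as a whole. The median log2 change of the members was 0.02, and that of all genes tested was 0.03. The untreated and emetine libraries did not overlap for 9 members, where 34.7% of all genes did not overlap.

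The precision of these values differed between families. The 95% confidence interval of the change lay within a log2 change of 1 in either direction for 65 of 75 members and within 1.5-fold for 35, with a median width of 0.45 on either side. For LAMC1 the log2 change was 0.02 (SE 0.126) with an interval of -0.26 to 0.31, and for COL6A1 it was -0.07 (SE 0.0950) with an interval of -0.28 to 0.15. For the low clustered protocadherins the interval reached past 1 for both genes tested. A 2-fold change was therefore outside the interval for most integrin, laminin and collagen chains, whereas a change of 1.5-fold was within it for 40 of the 75.

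**Figure D3:**
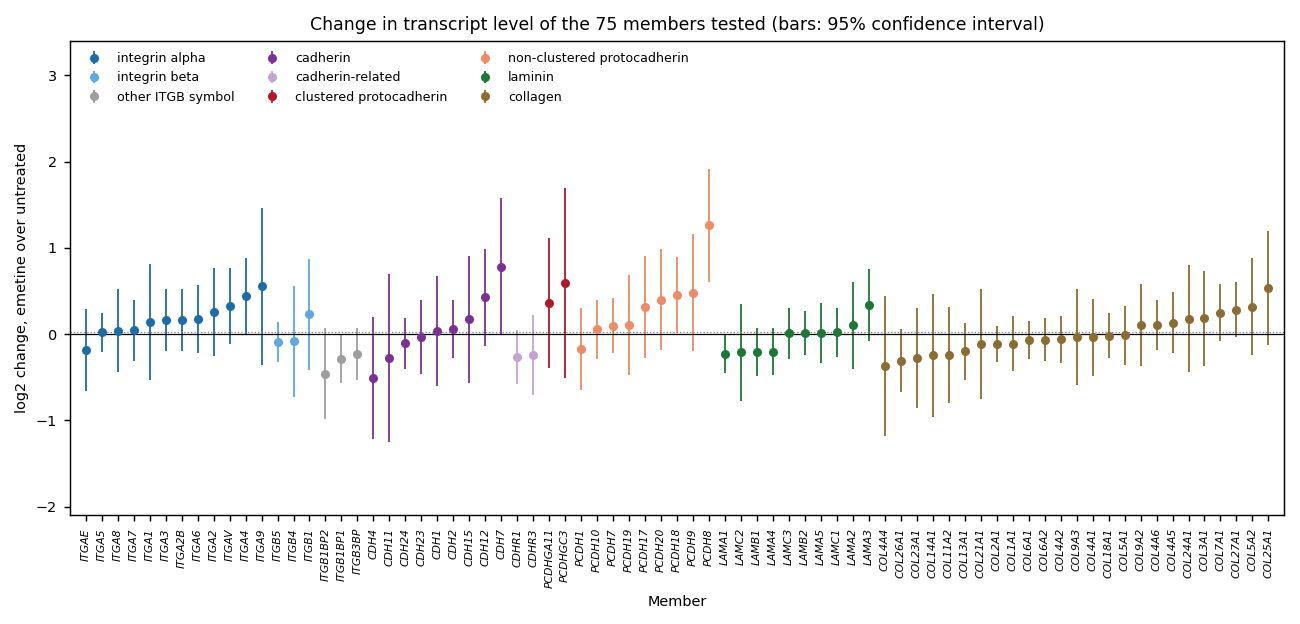
Log2 change in level (emetine over untreated) of the 75 members tested, ordered by family and size, with 95% confidence intervals from edgeR; the dotted line is the median of all genes tested, 0.03. Estimates run from -0.50 (CDH4) to 1.26 (PCDH8), and the interval of PCDH8 is the one farthest from 0.

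By family, 11 of 12 integrin alpha chains and 8 of 9 non-clustered protocadherins had a positive estimate, with medians of 0.17 and 0.31. Among all genes tested, estimates were positive for 1478 of 5296 with under 10% new reads and 3293 of 5193 with 10% to 25%. They were positive for 1894 of 2351 with 25% to 50% and 778 of 936 with at least 50%. Medians of single families without emetine replicate 3 were not computed. Collagens had 9 positive and 16 negative estimates (median -0.04), laminins 6 and 4 (median 0.01), and cadherins 5 and 4 (median 0.03). None of these families held a called member, and without emetine replicate 3 the median of all members was -0.11, and that of all genes was 0.01.

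PCDH8, a protocadherin of the delta group (chr13:52842889-52848641, minus strand), came closest to the threshold. It had 12, 22 and 17 reads in untreated and 50, 64 and 37 reads in emetine libraries, and 15 and 34 reads in the libraries without s4U. Every emetine library lay above every untreated one, with 0.430, 0.630 and 0.802 CPM against 1.43, 1.6 and 1.39 CPM. The log2 change was 1.26 (SE 0.29, edgeR adjusted p = 0.0588). It passed the threshold when the libraries without s4U were added (1.14, adjusted p = 0.0304) and without emetine replicate 3 (1.31, adjusted p = 0.0177). In the other alternatives that gave PCDH8 an edgeR adjusted p, it did not pass. These values ran from 0.0547 without a read filter to 0.237 without untreated replicate 1.

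The 250 bases before the PCDH8 start are shown as the upstream sequence of the member with the largest estimate (minus strand, chr13:52848641-52848890, RefSeq on GRCh38), with a CCAAT box on the opposite strand (ATTGG) and a TATA box (TATAAA) in capitals.

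PCDH8: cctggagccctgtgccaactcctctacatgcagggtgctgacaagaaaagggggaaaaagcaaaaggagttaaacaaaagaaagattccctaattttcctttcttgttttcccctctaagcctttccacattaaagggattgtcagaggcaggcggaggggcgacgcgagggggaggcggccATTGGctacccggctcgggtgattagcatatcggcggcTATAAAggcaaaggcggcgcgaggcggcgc

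Over windows of 250 bases, 32.01% of the promoters in the table held CCAAT and 10.7% TATAAA on either strand. PCDH8 held neither GGGCGG (42.6% of promoters) nor TGACG (21.2%).

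PCDH8 was also among the 3 of these 75 members with the highest new share. The fraction new is the share of a gene's reads made during the labeling hour, estimated from its conversions. For PCDH8 it was 45.3%, 70.1% and 72.3% in untreated and 69.2%, 74.5% and 79.3% in emetine-treated cells. With so few reads, the 95% likelihood interval of the first value ran from 17.9% to 76.1%. PCDH18, a second delta protocadherin, had 81.4%, 70.6% and 83.4% new reads in untreated and 63.8%, 57.9% and 64.6% in emetine-treated cells. All emetine values lay below the untreated ones, while its level lay above them at 4.17, 4.77 and 5.96 CPM against 3.15, 4.15 and 3.49 CPM. ITGB1BP2 (melusin), a muscle protein that binds the integrin beta 1 tail, had 77.0%, 74.6% and 76.4% new reads, and its level was 1.58, 1.78 and 1.75 CPM in untreated against 1.46, 1.15 and 1.09 CPM in emetine-treated cells.

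These genes had under 100 reads in at least one library and were not tested for the new share. With a minimum of 50 reads, PCDH18 could be tested: its fraction new differed by -0.83 in logit (SE 0.272, limma adjusted p = 0.120), and its unlabeled reads, those made before the hour, were raised by 0.90 on the log2 scale (SE 0.234, limma adjusted p = 0.0485). Its labeled reads differed by 0.11 (SE 0.267, limma adjusted p = 0.929). In that setting the unlabeled reads of 7.68% of all 11775 genes were raised, and in the others PCDH18 was below the read minimum and could not be tested.

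Most adhesion transcripts tested were long-lived in untreated cells. The 10 of 45 below the median of all genes were 5 non-clustered protocadherins, 3 integrin alpha chains, LAMA3 and COL27A1. Half-lives follow from the fraction new under an assumed steady state and are given without a test. The median half-life over the 45 members tested was 13.2 h, against 5.35 h for the 10763 genes tested (quartiles 2.76 h and 10.1 h). Of the 45 members, 35 were above the median of all genes, 31 above their upper quartile and 2 below their lower one. In single untreated libraries the members' median was 16.2, 12.9 and 10.4 h, and that of all genes was 7.13, 5.26 and 4.36 h, so both fell in the same order. In the libraries without s4U, where no read can be new, the estimated fraction new of members was at most 0.287% and was under 0.01% in both libraries for 41 of the 45. The background rate was itself taken from these libraries, so values near 0 there were largely set in advance and do not test the half-lives.

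**Figure D4:**
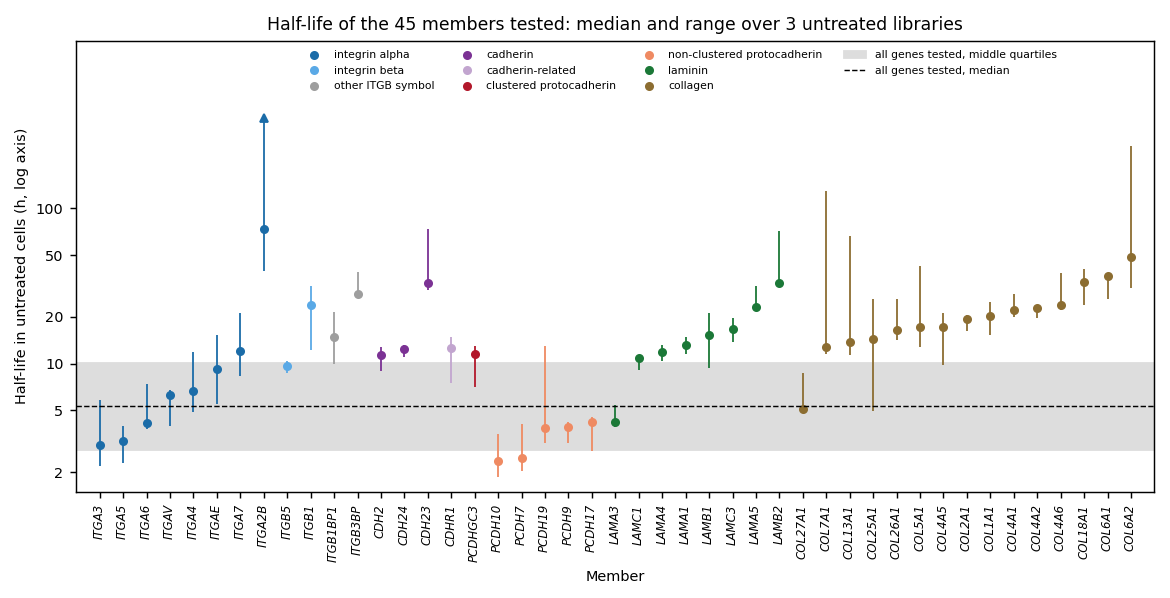
Half-life in untreated cells (h, log axis) of the 45 members tested, as the median (point) and range (line) over 3 libraries, by family; the grey band and dashed line are the middle quartiles and the median of all genes tested. Collagens and laminins lie mostly above the band and the non-clustered protocadherins within or below it; the arrow on ITGA2B marks a library whose fraction new was 0, for which the half-life has no upper limit.

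Collagens were the longest-lived family, with a median of 19.3 h, and 14 of 15 exceeded 10 h. COL6A2 (48.7 h), COL6A1 (36.8 h) and COL18A1 (33.3 h) had the longest medians, and COL27A1 (5.12 h) was the shortest. COL6A2 ranged from 30.8 to 251 h between libraries, with 8, 2 and 6 reads of at least 2 conversions, so its rank among these is uncertain. COL6A1 had 1.86%, 1.86% and 2.61% new reads in untreated cells. The type IV pair was alike, with 22.2 h for COL4A1 and 22.8 h for COL4A2. Of the 8 laminins, 7 exceeded 10 h, from 10.8 h for LAMC1 to 32.9 h for LAMB2, and LAMA3 lay at 4.19 h. Thus the laminin chain of highest level had the shortest median of those 7. At 5.09%, 5.69% and 6.43% new reads in untreated cells, LAMA4 overlapped LAMC1 between libraries, so this rank is uncertain.

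Apart from ITGA2B, the integrin alpha chains ran from 2.97 h to 12.1 h. ITGA3 (2.97 h) and ITGA5 (3.17 h) were short-lived, ITGAV lay at 6.28 h and ITGAE at 9.29 h. ITGA2B, the platelet chain, had the longest median of all members at 74.0 h, but it rests on 120 to 159 reads a library, of which 2, 1 and 0 had at least 2 conversions. ITGA5 had 16.0%, 19.7% and 26.2% new reads in untreated cells, and its partner ITGB1 2.16%, 2.87% and 5.55% (23.8 h). The chains of this receptor did not overlap in new share.

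All 5 non-clustered protocadherins tested lay below the all-gene median, at a median of 3.85 h. PCDH10 (2.35 h) and PCDH7 (2.48 h) were the shortest-lived of the 45, with 18.0%, 25.6% and 31.1% and 15.6%, 24.4% and 28.8% new reads. PCDH9 and PCDH19 followed at 3.91 h and 3.85 h. The classical cadherin CDH2 turned over more slowly at 11.4 h, with 5.92%, 5.29% and 7.44% new reads. CDH23 lay at 33.0 h, but this rests on 107 to 149 reads a library, of which 2, 1 and 2 had at least 2 conversions.

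The fraction new changed in 1 of the 45 members. ITGA7, a laminin-binding chain of muscle (chr12:55684568-55716404, minus strand), had 3.24%, 5.55% and 8.01% new reads in untreated and 3.37%, 2.60% and 1.26% in emetine-treated cells. The ranges overlapped at the lowest untreated and the highest emetine value. The difference was -0.89 in logit (SE 0.266, limma adjusted p = 0.0380). In the table as a whole, 4.83% of 10763 genes were lower and 0.214% higher, and 0 members were higher. Fewer than 20 reads a library carried at least 2 conversions, and the call was lost in 12 alternatives, with adjusted p from 0.0507 to 0.559, among them without untreated replicate 2 or 3 or emetine replicate 2 or 3. ITGA7 exons overlap 3 genes on the opposite strand, and whether the counting used strand is not given in the sources used here. Of the 75 members tested for level, 10 have such overlaps with coding genes. LAMB1, LAMA5, COL18A1, ITGAE, ITGB1BP1 and ITGB3BP are among them, so their levels and ratios carry the same limit.

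Over the 45 members, the fraction new was lower on average in 30 and higher in 15 after emetine, with a median logit difference of -0.15 beside -0.16 for all genes. Without emetine replicate 3 the median was -0.01 for members and -0.14 for all genes, and with a length and GC trend removed it was 0.04 and 0.02. The new-read share of whole libraries varied within groups, at 7.84%, 10.0% and 11.7% in untreated and 9.19%, 9.35% and 9.96% in emetine-treated cells. LAMC1 went from 6.07%, 6.20% and 7.35% to 8.63%, 7.76% and 8.60%, without overlap, but did not pass the test (0.26 in logit, SE 0.216, limma adjusted p = 0.631). Labeled reads changed in 0 of 45 members (0.260% raised and 0.632% lowered in the table), and unlabeled reads likewise in 0 (7.30% and 0.0929%).

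**Figure D5:**
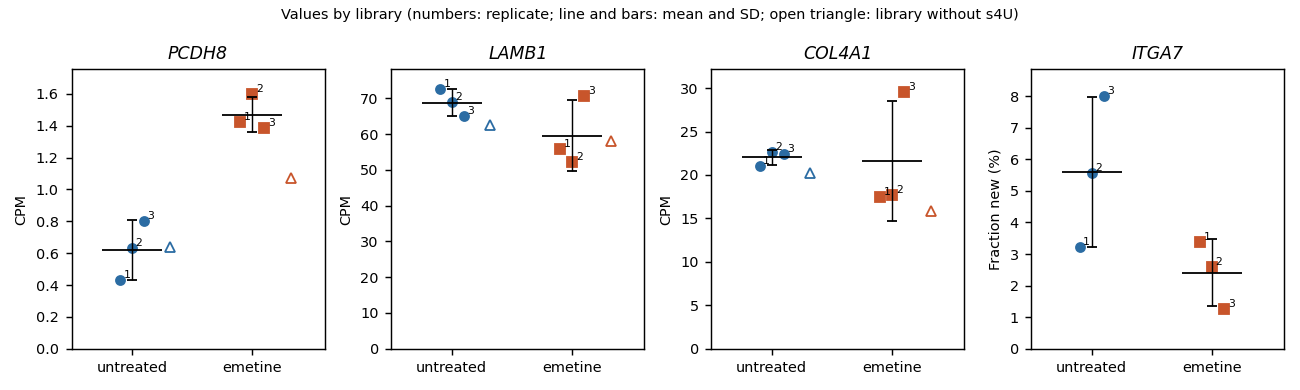
Values by library for PCDH8, LAMB1 and COL4A1 (CPM) and ITGA7 (fraction new, %), with the mean and SD of 3 s4U libraries per group as lines and bars, replicate numbers beside the points, and the library without s4U as an open triangle. Emetine replicate 3 is the highest emetine value for LAMB1 and COL4A1, and every emetine point of PCDH8 lies above the untreated points.

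In the setting reported, the calls of 5 members depended on emetine replicate 3, as for LAMB1 and COL4A1. LAMB1 had 72.5, 68.9 and 65.0 CPM in untreated and 55.9, 52.1 and 70.7 CPM in emetine-treated cells, and COL4A1 21.0, 22.7 and 22.4 CPM and 17.5, 17.6 and 29.6 CPM. In both, emetine replicates 1 and 2 lay below all untreated libraries and replicate 3 did not. Without it, 4 members were lowered, where 3.87% of all genes were: LAMB1 (-0.35, adjusted p = 0.00444), COL4A1 (-0.32, adjusted p = 0.0258), LAMA4 (-0.29, adjusted p = 0.0488) and CDHR1 (-0.37, adjusted p = 0.0395). PCDH8 was then the 1 member raised, where 10.1% of all genes were. The share of members lowered was thus near that of all genes, and LAMC1, COL4A2, LAMB2 and LAMA5 were not among them. The values without replicate 3 come from the same edgeR test with 2 emetine libraries, and the biological coefficient of variation over all genes fell from 13.3% to 6.43%. With all 6 libraries and a length and GC trend removed, edgeR lowered LAMB1 (-0.45, adjusted p = 0.0257) and LAMA4 (-0.48, adjusted p = 0.0486). In that setting 151 of all 13498 genes were lowered.

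The ratio of laminin chains within a library does not use scaling between libraries. LAMC1 over LAMB1 per kb was 5.64, 6.28 and 6.22 in untreated and 6.96, 7.06 and 7.16 in emetine-treated cells, and here emetine replicate 3 lay with the other emetine libraries. The groups did not overlap here, but did for each of the other chain pairs examined. This ratio was singled out from 13 chain pairs after its values were seen and is given without a test. No change in either chain is read from it. LAMC1 over LAMB2 overlapped between the groups, at 4.06 ± 0.219 and 4.06 ± 0.218 (SD, n = 3).

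Grouped by new share in untreated cells, an alternative view chosen after the values were seen, most members fell where few genes of any kind were raised. Of all genes tested for level, 5296 had under 10% new reads and 0.0189% of them were raised, whereas 936 had at least 50% and 21.2% of them were raised. Of the 75 members, 53 were in the former class, 17 had 10% to 25%, 2 had 25% to 50% (PCDH1 and PCDH20) and 3 had at least 50%. In the class under 10%, the median log2 change of level was -0.02 for members and -0.13 for all genes. The classes and the changes share the untreated libraries, so these shares are a description.

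Genes that work with these proteins were not called for level either. Of integrin adaptors such as talin, vinculin and FLNA, 19 were tested and 0 called, and the same held for 10 catenins and desmosomal genes, 19 genes of collagen folding and processing and 17 partners of the basement membrane. Their median log2 changes were 0.00, 0.10, -0.12 and -0.11. FLNA, the most abundant adaptor, had 656 CPM ± 41.2 in untreated and 678 CPM ± 175 in emetine-treated cells, and CTNNB1, the cadherin partner beta-catenin, 440 CPM ± 6.88 and 429 CPM ± 74.6 (SD, n = 3). In the fraction new, 1 of 61 was called: ADAMTS2, which cleaves the amino end of procollagen, rose from 1.39% ± 0.367 to 3.76% ± 1.68 (SD, n = 3), by 0.99 in logit (SE 0.296, limma adjusted p = 0.0335), where 0.214% of all genes were higher and 4.83% lower. This call was lost in 11 of 15 alternatives, with adjusted p from 0.0557 to 0.527, among them without untreated replicate 2 or 3 and without any single emetine replicate. The median half-lives of the lists were 10.5, 10.1, 10.6 and 11.8 h.

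At 2 h, the deposited tables give 1 mean of normalized counts per gene over all 9 libraries, without values by library. Of 9982 genes in them, 44 were members, and 10 of these lay above the median of all listed genes, 845. LAMC1 led again at the authors' mean of 6629, followed by CDH2 (4568), PCDH9 (3714), PCDH7 (3449), ITGB1 (3317) and ITGAV (2727). COL6A1, second at 1 h, had 403. Across the 44 members, the rank correlation of this mean with the 1 h level was 0.45, given as a description, since the kits differed (poly(A)-selected mRNA at 1 h, total RNA at 2 h) and so did the doses pooled in the mean. Members were not compared between 1.8 and 240 µM.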

How the data were processed

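TL-seq libraries of HEK-293T were grouped by their labels. The authors trimmed adapters with cutadapt, mapped reads to hg38 with hisat-3n and ran bam2bakR; the deposited 1 h table holds whole read counts, T positions and T-to-C conversions per read class, without normalization. The 2 h signal values are the authors' means of spike-in-scaled counts. The same tables hold the authors' log2 fold changes and p-values per dose, which were not used.

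Reads were summed per gene and tested with edgeR 4.0.16 (TMM, quasi-likelihood) for genes with more than 100 reads in total, with DESeq2 1.42.0 as an alternative. The fraction new was the weight of a 2-component binomial mixture, with the background conversion rate taken from the library without s4U and the rate of new reads fitted per library. Its logit, bounded 0.001 from either end, and log2 CPM of labeled and unlabeled reads (0.5 added), were tested with limma 3.58.1 where every library had at least 100 reads of the gene. P-values were adjusted over all genes tested (Benjamini-Hochberg). Exon lengths came from GENCODE 44, which matched 170 of 170 members by symbol. Each length is the union of a gene's exons over all isoforms, whether or not these cells express them. Ratios per kb between genes therefore depend on the annotation as well as on the reads. The tests of level and fraction new were run on simulated data. For level, 81.8% of changes of 1 and 98.5% of changes of 1.5 on the log2 scale were recovered, and 1.22% and 6.25% of calls were false. For the fraction new, 95% of changes of 1 in logit were recovered and 7.77% of calls were false. Its spread between libraries was a set value, without a shift of whole libraries or a length trend. Genes were drawn from all those with enough reads, whose median fraction new was 12.2% against 5.18% for members. The share recovered may therefore not hold for the members. Labeled and unlabeled reads and half-lives were not simulated. The likelihood intervals of the fraction new cover counting error within 1 library only, and no molecular identifiers are described. The confidence intervals of the level change come from the edgeR fit and include the spread between libraries. The members, the gene lists and the tests were chosen with earlier results of these data known. Named genes were the 3 most abundant of each family, the 5 shortest- and longest-lived, the 5 smallest p-values per direction, partner chains and any called gene; others named were chosen after their values were seen. One marker gene is not reported here.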

Additional observations from a re-analysis of the deposited data

How the results depend on the processing

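The count of members raised in level was 0 in the setting reported and in all alternatives except with the libraries without s4U added (1) and without emetine replicate 3 (range over left-out replicates 0 to 1). The count lowered was 2 with a length and GC trend removed (LAMA4 and LAMB1) and 0 to 4 over left-out replicates. Scaling to spike-in reads moved the median change of all genes to 0.71 and of members to 0.71, and gave CDHR1 0.44, COL4A1 0.66, LAMA4 0.48 and LAMB1 0.49, against negative estimates otherwise; relative to that median all 4 stayed lower. COL4A1 was also positive without emetine replicate 1 (0.094) or 2 (0.090) and ranged from -0.32 to 0.094 over left-out replicates. The count with a lower fraction new was 0 with a minimum of 50 or 500 reads (ITGA7 was then not tested at 500), 1 new-read rate for all libraries, the background rate doubled, centering, weighting, reads with at least 2 conversions, or the trend removed, and 0 to 2 without single replicates (PCDH10 joined without untreated replicate 1, COL13A1 took the place of ITGA7 without emetine replicate 2). Labeled reads gave 0 to 2 lowered members and unlabeled reads 0 to 3 over left-out replicates, and 1 raised at 50 reads. The median half-life was 16.2 h at 500 reads and 12.2 to 16.6 h over left-out replicates. The cause of these differences was not tested.

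With the replicate number as a block, 2 members had a lower fraction new (ITGA7 and COL13A1, the latter with a fraction new of 0 in emetine replicates 1 and 3, so that its logit there is the lower bound of 0.001 and no size is given), and 0 with block and trend together; level calls stayed at 0. Same-numbered libraries correlated at 0.07, -0.02 and -0.18 in level and 0.06, 0.00 and 0.02 in fraction new, so the number is not taken to pair them. Depth limits low members most: 92 with 1 to 100 reads were not tested.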
